A study of Mus musculus with 204 samples.

Results

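The neurons described here are those of the mouse distal colon that carried Nos1, which encodes the nitric oxide synthase of nerve cells, and they were divided by the presence of Chat, the gene of the enzyme that makes acetylcholine. A cell counted as a neuron where at least 3 of the 5 neuronal genes Elavl3, Elavl4, Snap25, Stmn2 and Syt1 reached 2 on the deposited scale, log2(RPKM + 1). RPKM is reads per kilobase of transcript and 1000000 reads. Of 204 picked cells 149 were neurons, and 78 of those had Nos1 at 1 or more. Chat lay below 1 in 27 of them and at 2 or more in 50, and the 1 cell between these limits was set aside. The comparison was made on plates 2 and 3, with 14 neurons without Chat against 9 with Chat on plate 2 and 12 against 19 on plate 3, or 26 against 28 cells in all. Plate 1 held 1 neuron without Chat and 22 with Chat and is only described. A further 18 and 16 neurons of plates 2 and 3, and 23 of plate 1, had Chat at 2 or more with Nos1 below 1, and their values are set beside the others.

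Neurons of the myenteric plexus, a nerve net within the muscle coat of the gut, drive and coordinate movement of the gut. Nitric oxide made by Nos1, together with peptides such as vasoactive intestinal peptide (from Vip) and galanin (from Gal), relaxes the muscle, whereas acetylcholine excites it. Chat makes acetylcholine, Slc18a3 encodes the transporter that loads it into vesicles, and Slc5a7 encodes the transporter that takes choline back up.

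All cells came from a reporter line, VGLUT2-tdTomato, in which the red fluorescent protein is tied to VGLUT2, the vesicular glutamate transporter encoded by Slc17a6, and the labels do not say whether it reports present or past expression. Muscle with the plexus was dissociated and kept in culture overnight before red cells were picked by hand into lysis mix, and cDNA was made into full-length libraries without molecular identifiers, with the wells of a plate pooled before amplification. Groups with and without Chat therefore share the reporter, the dissociation and the night in culture. The labels give no animal, age, sex or culture, so each class on a plate counts as 1 sample, no test or p-value was made, and the ± values are SDs over cells.

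Nos1 and Chat chose the cells, and their levels are given as a description. On plate 2 Nos1 lay between 1.28 and 7.20 with a median of 5.95 in the 14 neurons without Chat, against 1.01 to 4.56 with a median of 1.91 in the 9 with Chat. On plate 3 it lay between 2.09 and 7.59 (median 6.58) in the 12 without Chat and between 1.03 and 4.71 (median 1.98) in the 19 with Chat. The highest levels were all in neurons without Chat, the classes overlapped on both plates, and the mean difference was 2.99 on plate 2 and 3.44 on plate 3. Nearest to the Nos1 limit, the lowest level kept was 1.01 on plate 2 and 1.03 on plate 3, and the highest level below it was 0.95 and 0.70. A Nos1 level of 1 is 1 RPKM, or about 56.9 reads in the median compared cell of plate 2 and 71.0 on plate 3. The highest Chat level in the class without it was 0.60 on each of these plates, and the lowest in the class with it was 3.09 on plate 2 and 2.03 on plate 3. Chat itself is not compared further.

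**Figure D1:**
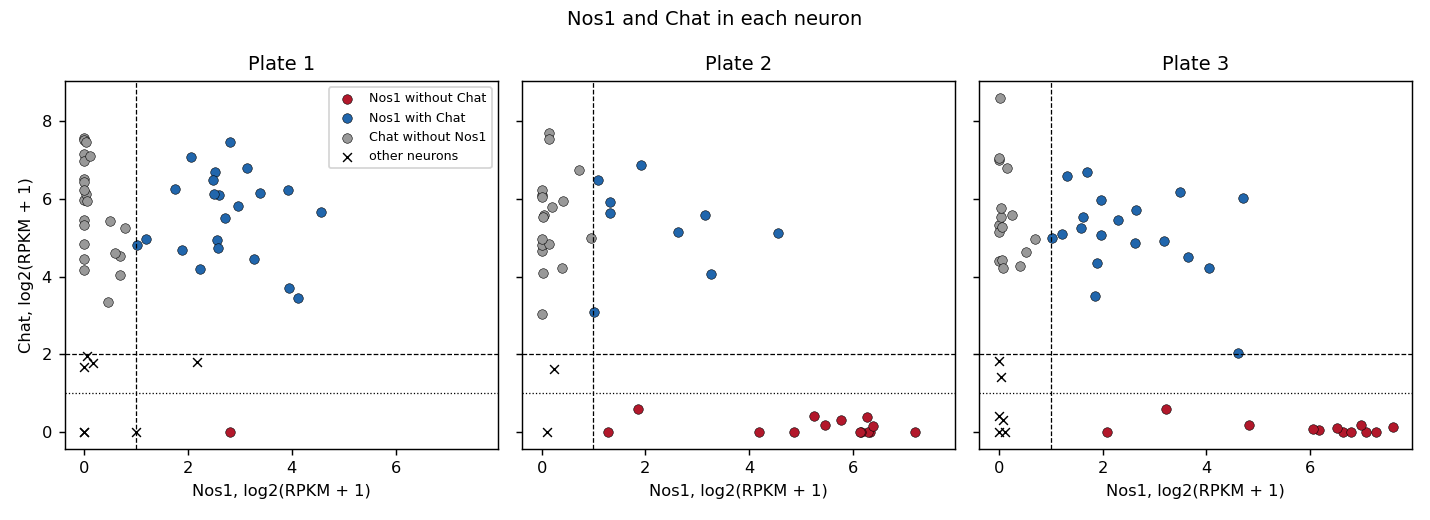
Nos1 (horizontal) and Chat (vertical) in log2(RPKM + 1) for each neuron of plates 1, 2 and 3, coloured by class, with dashed and dotted lines at the limits of the rule. Neurons without Chat reach Nos1 levels of 7.20 on plate 2 and 7.59 on plate 3, while neurons with Chat stay at or below 4.71 on these plates and 4.57 on plate 1.

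Cells were not equally deep, and a few stood apart. Median recovered reads were 5673760 without Chat against 3834500 with Chat on plate 2, and 7377320 against 5828830 on plate 3. Cells 18, 33 and 58 of plate 2, all without Chat, had 631042, 453108 and 684986 reads with a mitochondrial share of 13.8, 12.5 and 11.3%, and cell 6 of plate 2, with Chat, had 512155 reads and a share of 15.5%. These were the only compared cells under 1000000 reads, and the counts below are also given without them. The smooth muscle list, with genes such as Tagln and Acta2, was carried (at least 50% of its genes detected) by 7 of 14 cells without Chat and 3 of 9 with Chat on plate 2, and by 2 of 12 and 10 of 19 on plate 3. Its summed level ran from 2.15 to 12.4 without Chat and 2.69 to 10.1 with Chat on plate 2, and from 2.74 to 6.01 and 2.82 to 9.87 on plate 3. None of its 6 genes that could be compared passed the limit used below in either direction, and the part of other cells' RNA in the differences was not tested beyond leaving out such cells. The libraries held cells of both sexes by Xist and Y-linked transcripts: Xist reached 1 in 3 of 14 neurons without Chat and 3 of 9 with Chat on plate 2, and in 0 of 12 and 2 of 19 on plate 3. The 3 neurons without Chat were the shallow cells 18, 33 and 58, with Xist at 1.90, 3.72 and 3.96.

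Among 14115 genes that reached 1 in at least 5 compared cells of each plate, 57 had a mean at least 2 higher in neurons without Chat on both plates, which is 0.404% of the genes. A mean at least 2 lower on both plates was found for 0.956% of them, so that 1.36% passed in either direction. A difference of 2 is a ratio of about 4 between geometric means of RPKM + 1. On a single plate the limit was passed upwards by 0.779% of genes on plate 2 and 0.744% on plate 3, and downwards by 2.03% and 1.7%. The median difference over all genes compared was -0.15 on plate 2 and -0.13 on plate 3. Without the 4 cells under 1000000 reads 80 genes were higher (0.58%) and 160 lower (1.16%), and these held all 57 of the higher genes and all but 4 of the lower ones. Below, higher and lower mean past this limit on both plates unless a value is given for each plate. As 1.36% of all genes passed in either direction, 0 in a short list is near that share and is no result about the list.

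**Figure D2:**
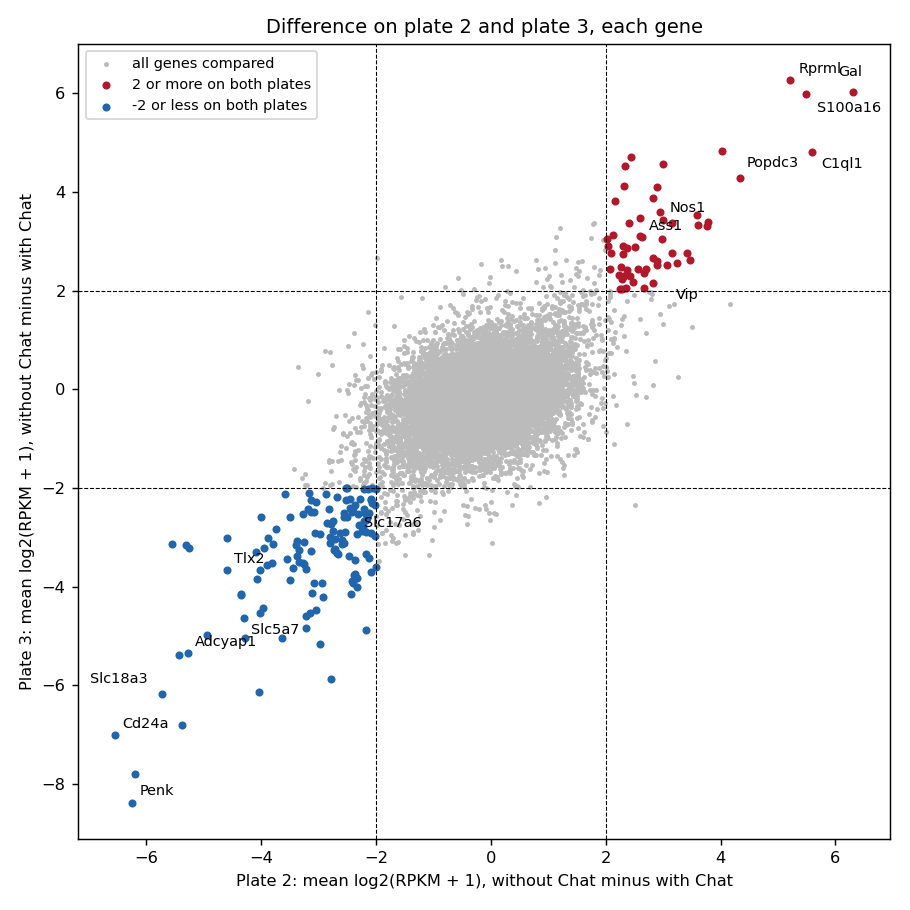
Difference in mean log2(RPKM + 1), neurons without Chat minus neurons with Chat, on plate 2 (horizontal) and plate 3 (vertical), 1 point per gene, with dashed lines at 2 and -2. The 57 genes at the upper right include Gal (6.31 and 6.03), the genes at the lower left include Penk (-6.25 and -8.38), and Vip (3.10 and 1.68) lies outside because of plate 3.

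Gal had the largest difference among higher genes when the smaller of each gene's pair of plate values is taken. On plate 2 its level lay between 4.05 and 15.90 with a median of 9.83 in the 14 neurons without Chat, against 2.91 to 5.80 with a median of 3.83 in the 9 with Chat. On plate 3 it lay between 2.07 and 14.87 (median 10.37) in the 12 without Chat, and between 1.44 and 7.75 (median 2.10) in the 19 with Chat. Most cells without Chat were above every cell with Chat, but the ranges overlapped on both plates. The means were 10.27 ± 3.56 and 3.96 ± 0.95 on plate 2 and 9.39 ± 3.88 and 3.35 ± 2.16 on plate 3 (SD over cells, without Chat first on each plate). Part of the low Gal level can come from reads assigned to the wrong well. The level expected from this was estimated from genes that 1 cell held almost alone. There were 5 such genes on plate 2 but only 1 on plate 3, so all expected levels of plate 3 rest on 1 gene. The expected Gal level had a median of 4.45 for the neurons with Chat on plate 2, where 7 of 9 were at or below their own expected level. On plate 3 it had a median of 1.79, and 5 of 19 were at or below theirs. On plate 1 Gal had a median of 0 and a highest level of 5.97 in the 22 neurons with Chat.

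Vip was the less even of these peptide genes. It lay between 0.59 and 11.86 (median 6.20) in neurons without Chat and between 0.31 and 9.43 (median 0.72) in neurons with Chat on plate 2, and between 0.97 and 13.56 (median 3.29) and between 0.70 and 10.65 (median 1.86) on plate 3. Both classes held cells with high and cells with very low Vip. The mean differences were 3.10 and 1.68, so Vip did not pass the limit on plate 3, although leaving out single cells could bring the smaller of them to 2.08. At a level of 4 or more, Gal and Vip were both present in 8 of 14 neurons without Chat on plate 2 and 6 of 12 on plate 3, against 1 of 9 and 2 of 19 with Chat. Gal without Vip was seen in 6 and 4 neurons without Chat and 3 and 3 with Chat. Vip without Gal was seen in 0 of 26 neurons without Chat, which allows a share of up to 11.5%, and in 1 and 4 with Chat. On plate 2 the level of 4 lies within the Gal level expected from reads assigned to the wrong well, which had a median of 3.92 and a highest value of 7.48 in neurons without Chat, so these counts depend on the level chosen there. The shallow cell 33, with Gal at 5.57 and Vip at 5.76, is counted as having both. Neither was present in 0 and 2 of the cells without Chat, against 4 and 10 of those with Chat and 13 of the 22 on plate 1.

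The stretches of 250 bases upstream of the annotated starts of Gal, Vip and Adcyap1 are shown because these 3 peptide precursor genes differed in unlike ways between the classes (RefSeq, GRCm38.p6, read 5′ to 3′ on the strand of the gene). Capitals mark TGACGT or its reverse complement ACGTCA, the core letters of the cyclic AMP response element. The letters stand at base -79 from the start of Vip and at -91 from the start of Adcyap1 that is used here, and not in the window of Gal, which lies at chr19:3414545-3414794 on the minus strand. Vip's window is chr10:5638968-5639217 and Adcyap1's is chr17:93198767-93199016, both on the plus strand. RefSeq gives a further start of Adcyap1, whose window at chr17:93198918-93199167 holds the same letters at -242. Of 32851 such windows 6.47% hold either form. A match is a description of letters only.
Gal: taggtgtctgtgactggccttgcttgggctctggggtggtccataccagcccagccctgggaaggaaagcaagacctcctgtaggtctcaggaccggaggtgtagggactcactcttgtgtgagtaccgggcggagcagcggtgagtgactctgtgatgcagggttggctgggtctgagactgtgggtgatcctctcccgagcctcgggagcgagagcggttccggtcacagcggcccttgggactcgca
Vip: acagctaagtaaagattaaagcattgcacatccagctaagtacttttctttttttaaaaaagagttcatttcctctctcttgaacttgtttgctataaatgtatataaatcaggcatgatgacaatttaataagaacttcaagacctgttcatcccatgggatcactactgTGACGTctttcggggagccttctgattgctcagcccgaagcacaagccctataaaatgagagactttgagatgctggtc
Adcyap1: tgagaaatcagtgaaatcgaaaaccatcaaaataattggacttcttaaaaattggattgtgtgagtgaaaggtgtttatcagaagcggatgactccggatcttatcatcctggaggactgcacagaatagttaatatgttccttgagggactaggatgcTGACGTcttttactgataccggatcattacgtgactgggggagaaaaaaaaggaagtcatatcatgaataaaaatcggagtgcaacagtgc

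**Figure D3:**
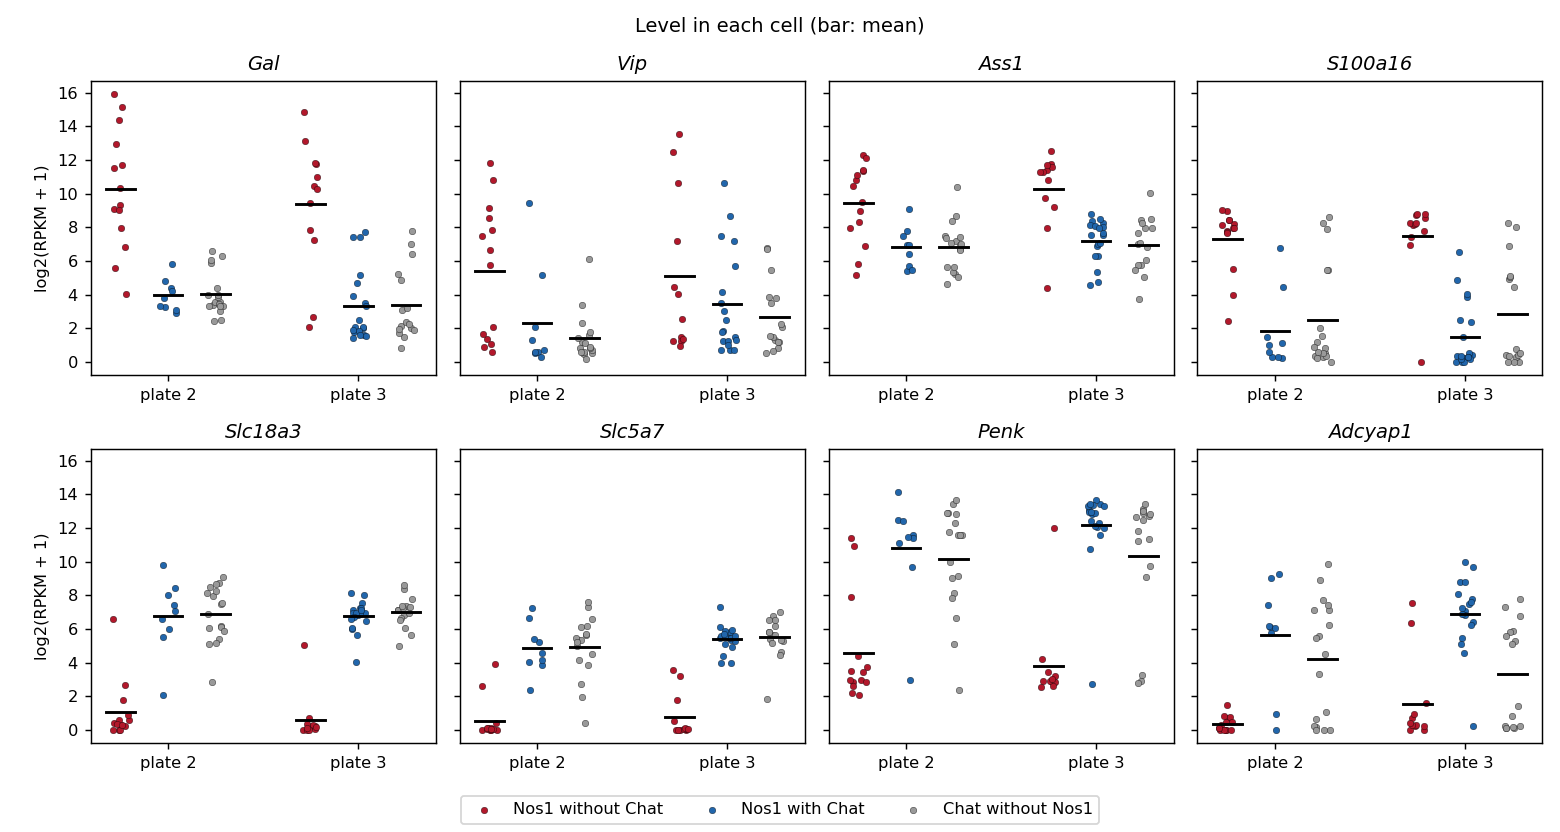
Level of 8 genes in log2(RPKM + 1) on plates 2 and 3, 1 point per cell and a bar at the mean, for neurons with Nos1 and no Chat, with Nos1 and Chat, and with Chat and no Nos1. Gal, Ass1 and S100a16 are highest in the first class (Gal means of 10.27 and 9.39), while Slc18a3, Slc5a7 and Penk are low in most cells of the first class, and Penk has means of 12.17 with both and 10.34 with Chat alone on plate 3.

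Of the nitric oxide pathway, 14 of 19 genes could be compared, and 3 were higher and 0 lower in neurons without Chat. The list's median difference was 0.31 on plate 2 and -0.08 on plate 3. Besides Nos1, which the rule used, these were Ass1, which rebuilds the arginine that the synthase consumes, and Pde5a, which breaks down the messenger cyclic GMP. Ass1 had means of 9.44 ± 2.31 without Chat and 6.81 ± 1.20 with Chat on plate 2, and 10.31 ± 2.25 and 7.22 ± 1.26 on plate 3. All compared cells had Ass1 above 4, and the classes overlapped. Pde5a was detected, meaning at 1 or more, in 12 of 14 and 12 of 12 neurons without Chat and in 2 of 9 and 5 of 19 with Chat. Ddah1, whose product removes a natural inhibitor of nitric oxide synthases, went the other way, with differences of -4.08 and -3.85. It is not on the list, so the count of 0 lower does not cover every gene of the pathway. Ddah1 passed the limit as a lower gene. Ddah1 was detected in 6 of 14 and 7 of 12 neurons without Chat, against 9 of 9 and 17 of 19 with Chat.

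Further genes that led by the smaller of their differences on plates 2 and 3 encode proteins of diverse kinds. S100a16, for a calcium-binding protein, differed by 5.49 and 5.99 and was detected in 14 of 14 and 11 of 12 neurons without Chat, against 5 of 9 and 7 of 19 with Chat. Rprml (5.21 and 6.27) was detected in 22 of 26 neurons without Chat and 2 of 28 with Chat (84.6%, interval 65.1 to 95.6%, against 7.1%, interval 0.9 to 23.5%, exact Clopper-Pearson 95% for counting error only). C1ql1, whose secreted C1q-like product acts at synapses, differed by 5.59 and 4.82, with detection in 23 of 26 and 6 of 28.

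The Popeye domain genes Popdc3 and Bves, whose membrane proteins bind cyclic AMP, were both higher, out of 2 of the 3 family members that could be compared. Popdc3 differed by 4.34 and 4.29 and Bves by 3.59 and 3.53. Popdc3 was detected in 22 of 26 neurons without Chat and 1 of 28 with Chat, and Bves in 21 of 26 and 3 of 28. They are neighbours on the plus strand of chromosome 10, Popdc3 at 45178098 to 45318452 and Bves at 45335772 to 45372479 (GENCODE M21, mm10), with 17320 bases between them. S100a16 likewise has called neighbours on chromosome 3, S100a13 and S100a4, both higher.

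Receptor and channel genes were represented by single members. P2ry6, the receptor for the nucleotide UDP, differed by 4.02 and 4.83 and was detected in 21 of 26 neurons without Chat and 1 of 28 with Chat. It was the 1 higher gene of 7 purinergic genes compared, with 0 lower. Kcnj5, a G protein-gated potassium channel subunit, differed by 2.99 and 4.57 with detection in 22 of 26 and 1 of 28. F2rl2, a protease-activated receptor, was detected in 19 of 26 and 0 of 28, the second of which allows a share of up to 10.7%. Slc35d3, of a nucleotide sugar transporter family, was detected in 18 of 26 and 0 of 28. Gfra1, a co-receptor for the growth factor GDNF, differed by 2.24 and 2.32 and was detected in 21 of 26 and 2 of 28. Asic2, an acid-sensing channel subunit, differed by 2.59 and 3.47, and its classes overlapped, with detection in 13 of 14 and 11 of 12 against 6 of 9 and 12 of 19. The rest of the leading genes were Scx, Plvap, Tspan18 and Pdpn, whose smaller difference of the pair of plates lay between 2.89 and 3.40. Neurons with Chat alone had Pdpn too, at means of 4.34 and 3.88 against 4.14 and 5.20 without Chat and 1.25 and 1.10 with both. Scx was not limited to neurons without Chat either. Its mean with both transcripts minus its mean with Chat alone was -2.74 and -0.47 (plates 2 and 3, in this order). The same difference was -3.02 in the cells of plate 1, so plate 3 showed little of it. Plvap is best known from vessel walls, where it marks endothelium. Of the 7 genes on the endothelial list Egfl7 alone could be compared, with differences of -0.97 and -1.31, and the part of endothelial RNA in the Plvap level was not tested.

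Of the genes of acetylcholine handling, with Chat left out, 3 of the 7 compared (Slc18a3, Slc5a7 and Prima1) were lower in neurons without Chat and 0 higher, and the list's median was -1.99 on plate 2 and -2.58 on plate 3. Slc18a3 lay between 0 and 6.61 (median 0.38) in neurons without Chat and between 2.08 and 9.80 (median 7.05) with Chat on plate 2, and between 0 and 5.04 (median 0.20) and between 4.03 and 8.14 (median 6.95) on plate 3. On both plates it was above 1 in every neuron with Chat and in 3 and 1 neurons without. The differences were -5.72 and -6.17. Slc5a7 differed by -4.31 and -4.64, and on plate 3 its classes did not overlap, with a highest level of 3.55 without Chat and a lowest of 3.95 with Chat. On plate 2 they did overlap. Of all 14115 genes compared, 2 (0.0142%) were lower without overlap on plate 3, and 0 on both plates. Prima1, which anchors acetylcholinesterase to membranes, differed by -2.18 and -4.89. Slc18a3 at 32462438 to 32464850 lies within the span of Chat, 32408203 to 32465989, on the minus strand of chromosome 14 (GENCODE M21), so that without knowing how shared reads were assigned the levels of this gene and Chat are not fully separate measures.

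The windows upstream of Slc18a3 and Chat are shown because these neighbouring genes are read in the same direction and were low or high together (RefSeq, GRCm38.p6, minus strand, 250 bases, capitals as above). They lie at chr14:32464851-32465100 and chr14:32465910-32466159. TGACGT is absent in the first, and its reverse complement begins at base -172 of Chat.
Slc18a3: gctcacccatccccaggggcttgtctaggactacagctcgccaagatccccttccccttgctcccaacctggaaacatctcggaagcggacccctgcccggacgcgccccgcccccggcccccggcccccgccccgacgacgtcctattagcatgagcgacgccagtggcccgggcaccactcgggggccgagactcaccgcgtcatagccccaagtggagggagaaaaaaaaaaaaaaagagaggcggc
Chat: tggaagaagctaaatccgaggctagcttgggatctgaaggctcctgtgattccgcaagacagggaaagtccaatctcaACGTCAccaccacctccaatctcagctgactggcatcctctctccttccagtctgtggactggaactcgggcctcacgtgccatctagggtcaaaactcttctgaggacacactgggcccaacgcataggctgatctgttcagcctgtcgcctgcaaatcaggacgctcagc

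Enkephalin and PACAP precursor transcripts accompanied Chat. Penk lay between 2.07 and 11.41 (median 3.21) in neurons without Chat and between 2.95 and 14.12 (median 11.48) with Chat on plate 2, and between 2.58 and 12.01 (median 2.91) and between 2.73 and 13.64 (median 12.88) on plate 3. High Penk in neurons without Chat was limited to cells 18, 20 and 58 of plate 2 and cell 1 of plate 3 at 7.88 or more. The differences were -6.25 and -8.38. Reads assigned to the wrong well would by themselves give a median Penk level of 3.36 on plate 2 and 2.71 on plate 3 in neurons without Chat, and 8 of 14 and 2 of 12 were at or below their own expected level. Adcyap1, the precursor of PACAP, differed by -5.28 and -5.35 and was detected in 1 of 14 and 3 of 12 neurons without Chat, against 7 of 9 and 18 of 19 with Chat. It stands on the list of inhibitory motor genes, where 4 of 8 genes compared were higher (Gal, Ass1, Gfra1 and Nos1, the last of which the rule used) and Adcyap1 alone was lower. Of 11 neuropeptide genes compared, Gal was higher and Adcyap1 and Penk were lower. Of the 5 compared genes of the excitatory motor list, Penk and Casz1 were lower and 0 higher. None of 9 peptide processing genes passed the limit, which is near the share over all genes (1.36%). Among them Pcsk2, a prohormone-cleaving protease, was nearest at 1.75 and 3.07.

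Slc17a6, the gene of the reporter line, was nearly absent from neurons without Chat. Its level was 4.31 in 1 cell (cell 33 of plate 2), 0.33 or less in the other 13 of plate 2 and 0.10 or less in the 12 of plate 3. In neurons with Chat it ranged from 0 to 4.65 (median 3.66) on plate 2 and from 0 to 4.61 (median 3.80) on plate 3, and it was at 1 or more in 1 of 26 against 22 of 28 (3.8%, interval 0.1 to 19.6%, against 78.6%, interval 59.0 to 91.7%). The mean differences were -2.34 and -2.94. On plate 1 all 22 neurons with Chat had Slc17a6, between 2.11 and 7.01. Among cells with Nos1 at 4 or more, where neurons with Chat numbered 1 and 3, the Slc17a6 difference was 0.39 on plate 2 and -0.45 on plate 3. The related genes Slc17a7 and Slc17a8 were below 1 in all 26 neurons without Chat, and Slc17a8 reached 1 in 2 of 28 with Chat. All of these cells had been picked for red fluorescence, whose strength per cell is not analysed here.

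Lower in neurons without Chat were also 2 of 5 genes of monoamine handling, 2 of 9 serotonin and adrenergic receptor genes and 1 of 10 peptide receptor genes compared, with 0 higher in these lists. Dbh, which makes noradrenaline from dopamine, differed by -3.14 and -4.54 and was detected in 4 of 26 neurons without Chat and 22 of 28 with Chat. Ddc, the aromatic amino acid decarboxylase, differed by -2.21 and -2.67, with detection in 1 of 26 and 20 of 28. Npy1r, a receptor for neuropeptide Y, was detected in 0 of 26 and 24 of 28 (differences -3.35 and -3.25). Glp1r, a peptide receptor gene that the list leaves out, was lower too (-2.34 and -4.02). Htr4, a serotonin receptor, was detected in 1 of 26 and 18 of 28, and Adra2a, the alpha-2A adrenoceptor, in 10 of 26 and 25 of 28. None of the 7 cholinergic and 9 glutamate receptor genes compared passed the limit in either direction, which is near the share over all genes (1.36%).

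Among 27 enteric transcription factors and related regulators compared, 5 were lower in neurons without Chat. St18, a zinc finger factor, was higher (2.30 and 2.75). The lower ones were Tlx2, a homeobox gene of enteric neurons (-4.60 and -3.67), Pbx3 (-3.39 and -3.16), the splicing regulator Rbfox1 (-3.13 and -3.27), Casz1 (-2.09 and -3.69) and Tbx3 (-2.08 and -2.25). Pbx3 was detected in 3 of 26 neurons without Chat and 27 of 28 with Chat. Tbx3 in contrast was detected in every compared cell, between 2.40 and 7.73 without Chat and between 1.73 and 8.17 with Chat, so its difference is one of level. None of 13 Hox genes passed the limit, which is near the share over all genes compared (1.36%). Their list medians were -0.56 and -0.78, against -0.15 and -0.13 over all genes.

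Cd24a, for a small anchored glycoprotein, had the largest difference among lower genes when the smaller of each pair is taken (-6.54 and -7.01), with medians of 1.24 and 1.26 in neurons without Chat against 9.20 and 10.22 with Chat. Of 20 synaptic adhesion genes compared, C1ql1 and Nxph3 were higher and Ntng1 (-3.21 and -3.63), Lrrtm1 and Nell2 lower. Of 28 listed vesicle release genes, Syp, for synaptophysin, was higher (2.89 and 2.61) and Sv2c lower (-3.56 and -3.43). The list is not complete: Rims3 (2.47 and 2.18) and Syt13 (2.71 and 2.44), which it leaves out, were higher too. Rab27b, also left out, was lower (-2.51 and -2.01). Sv2c was at 1 or more in 5 of 26 neurons without Chat and in 28 of 28 with Chat. Of 14 cytoskeletal genes the neurofilament genes Nefl and Nefm and the peripherin gene Prph were lower and 0 higher. Nefl and Nefm were also higher with both transcripts than with Chat alone, by 2.54 and 3.02 for Nefl and 2.39 and 2.61 for Nefm. Their levels thus did not simply follow Chat. The annotated spans of Nefl and Nefm overlap in part on opposite strands of chromosome 14. Reads from a stretch that both share could not be told apart without a strand setting, and how many there were was not tested. Of 29 potassium channel genes Kcnj5 was higher and Kcnh2, the hERG channel, lower (-2.15 and -2.52), and 0 of 19 calcium, HCN and sodium channel genes passed. The other leading lower genes were Pcp4l1, Stac, Mt3, Tmeff2, Cpne8, Nrsn2, Lrrn3 and Lgals3, whose smaller differences lay between -3.96 and -5.38. Hspb1, a heat shock gene of the injury list, was lower too (-2.77 and -5.87), the 1 of 14 injury genes that was, and none of 12 immediate early genes passed in either direction. Over all genes compared 1.36% passed, so the counts of 0 among these channel and immediate early genes are near that share.

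Neurons without Chat were not uniform, and this shows when the 15 leading higher and 15 leading lower genes are counted cell by cell. These genes were chosen from the same cells, so the counts describe the spread within each class. In 21 of 26 neurons without Chat 12 to 15 of the higher and 1 to 7 of the lower genes were detected, and these 21 had Nos1 between 4.82 and 7.59. In the other 5 only 2 to 7 of the higher and 8 to 14 of the lower genes were detected, with Nos1 between 1.28 and 4.19. They are the shallow cells 18, 33 and 58 of plate 2 and cells 1 and 41 of plate 3. Cell 1 of plate 3, with 2053135 reads, had 2 higher and 14 lower genes, Penk at 12.01 and Gal at 2.69, and cell 41, with 6885168 reads, had 7 and 8, with Gal at 10.99 and Vip at 13.56. The 28 neurons with Chat detected 1 to 5 of the higher and 12 to 15 of the lower genes. On plate 1, whose values chose no gene, the 22 neurons with Chat detected 0 to 5 and 13 to 15, and the only neuron without Chat, of 570321 reads, detected 3 and 10.

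**Figure D4:**
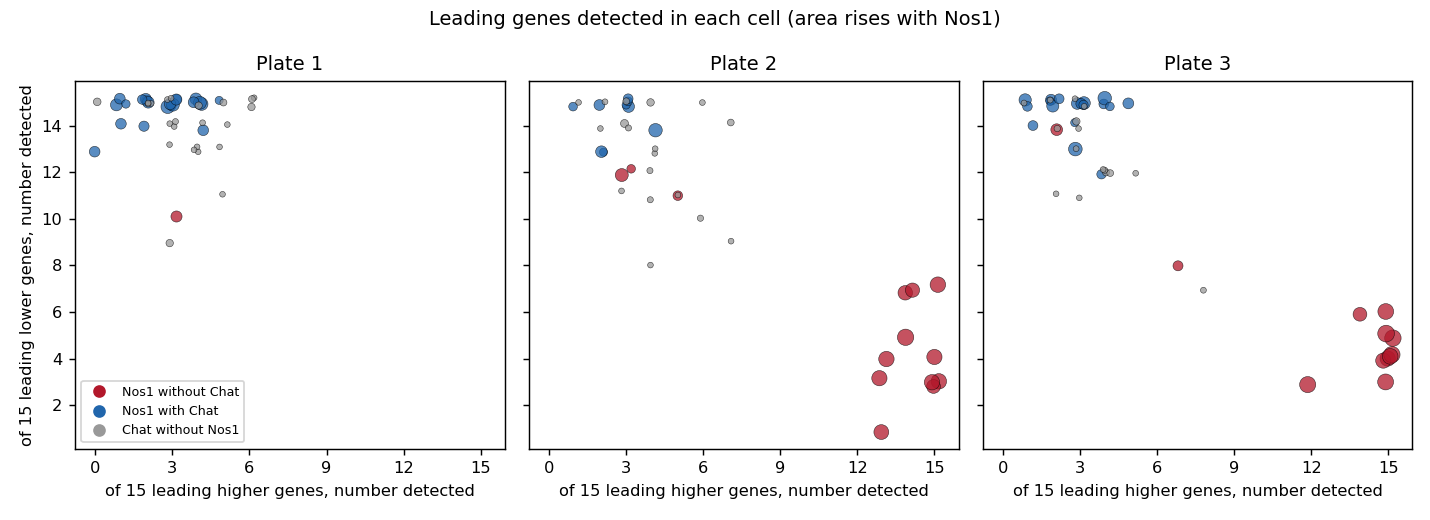
Number of the 15 leading higher genes (horizontal) and 15 leading lower genes (vertical) at 1 or more in each cell of plates 1, 2 and 3, with point area rising with Nos1 and a small random shift to part equal points. On plates 2 and 3, 21 of 26 neurons without Chat lie at 12 or more higher genes and 7 or fewer lower ones, and 5 lie nearer to the neurons with Chat.

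Because Nos1 differed along with Chat, the comparison was repeated in narrower ranges of Nos1. Among cells with Nos1 at 4 or more, 12 against 1 on plate 2 and 10 against 3 on plate 3, 193 genes were higher (1.73%) and 85 lower (0.762%), and these included 41 of the 57 higher genes and 23.0% of the lower ones. Only 61 of the lower genes were detected in enough cells to be compared there, and 31 of these were called again. The single neuron with Chat on plate 2 in this range was the shallow cell 6, and the median difference over all genes was then 1.45 on plate 2, against 0.04 on plate 3. The 6 neurons with Chat and Nos1 at 4 or more on all plates detected 3 or 4 of the leading higher genes and 13 to 15 of the lower ones, within the range of the other neurons with Chat. Among cells with Nos1 between 1 and 5, 4 against 9 and 3 against 19, 9 genes were higher (0.0758%) and 189 lower (1.59%), including 2 of the 57, Gal and S100a16, and 42.2% of the lower genes. The median difference over all genes was -0.69 on plate 2 and -0.22 on plate 3. Only 19 of the 57 higher genes were still detected in enough cells to be compared there. Of the 4 neurons without Chat on plate 2 in this lower range 3 were the shallow ones. Syp then differed by -0.19 and 0.52. Among cells with Nos1 at 4 or more, Npy1r differed by 0.0323 and -3.72, Ddc by 0.00272 and -2.56, Adra2a by 0.78 and -2.23 and Nefl by 2.12 and -5.36, in each case with the sign on plate 2 resting on cell 6. Absence of Chat and high Nos1 thus went together in most cells and cannot be told apart for the genes that were higher. The same limit holds for the lower genes, of which 23.0% and 42.2% were called again in these ranges of few cells.

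Neurons with Chat and no Nos1 give a further point of view, with their values side by side since the comparisons share cells. For Gal and Slc18a3 their means were near those of neurons with both transcripts. Gal had means of 10.27, 3.96 and 4.05 on plate 2 in neurons with Nos1 alone, with both and with Chat alone, and 9.39, 3.35 and 3.40 on plate 3. On plate 2, 7 of 9 neurons with both were at or below the Gal level expected from reads assigned to the wrong well. This limits what the likeness of the Gal means there can show. Slc18a3 had 1.05, 6.77 and 6.90 on plate 2 and 0.60, 6.77 and 6.99 on plate 3, and Penk 4.56, 10.81 and 10.15, then 3.79, 12.17 and 10.34. Neurons with both transcripts minus those with Chat alone differed in Penk by 0.66 on plate 2 and 1.83 on plate 3, and plate 1, with 2.07, passed the limit. Taking neurons with both minus those with Chat alone, 21 genes of 14719 were higher on both plates (0.143%) and 6 lower (0.0408%), and on plate 1 alone 38 of 16202 (0.235%) and 20 (0.123%).

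Some genes set neurons with both transcripts apart from those with Chat alone. Tac1, the precursor of the excitatory peptide substance P, was detected in 5 of 14 neurons with Nos1 alone, 1 of 9 with both and 11 of 18 with Chat alone on plate 2, and in 0 of 12, 3 of 19 and 8 of 16 on plate 3. On plate 1 it was detected in 9 of 22 neurons with both and 15 of 23 with Chat alone, with means of 1.74 and 5.09. Htr3a, a subunit of the serotonin-gated channel, had means of 5.71, 4.11 and 1.74 on plate 2 and 6.43, 4.53 and 1.96 on plate 3 in the same order of classes, and Etv1, a transcription factor, had 5.66, 4.74 and 2.41 and 5.95, 5.34 and 2.18. By these means the neurons with both transcripts were nearer to those with Nos1 alone for both genes. Htr3a spread widely over cells, with SDs of 3.53, 4.20 and 3.13 on plate 3. Its medians there were 7.48, 3.90 and 0.46, which place the cells with both about midway. On plate 1 Etv1 was at 1 or more in 22 of 22 neurons with both and 14 of 23 with Chat alone.

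A second group was highest where both transcripts were present. Dbh had means of 1.03, 4.17 and 1.42 on plate 2 and 0.92, 5.46 and 2.66 on plate 3 in neurons with Nos1 alone, with both and with Chat alone. Ntng1, the gene of a netrin-like adhesion protein, had 0.51, 3.72 and 1.55 and then 0.56, 4.20 and 1.63, and Tbx3 had 4.64, 6.72 and 4.10 and then 4.13, 6.38 and 3.74. Among neurons with Chat alone 14 of 18 and 10 of 16 had Tbx3 at 1 or more, against every neuron of the other classes on these plates. Several other genes called lower above also had their highest mean with both transcripts, among them Nefl and Nefm. Both minus Chat alone was 2.43 and 4.18 for Pcp4l1, 2.43 and 2.23 for Tmeff2, 2.61 and 2.73 for Mt3 and 2.17 and 3.20 for Lrrn3. Cartpt, the precursor of the CART peptide, was similar in neurons with Nos1 alone and with both (means of 8.07 and 8.14 on plate 2, 7.73 and 8.69 on plate 3), above the 5.25 and 6.23 of neurons with Chat alone.

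**Figure D5:**
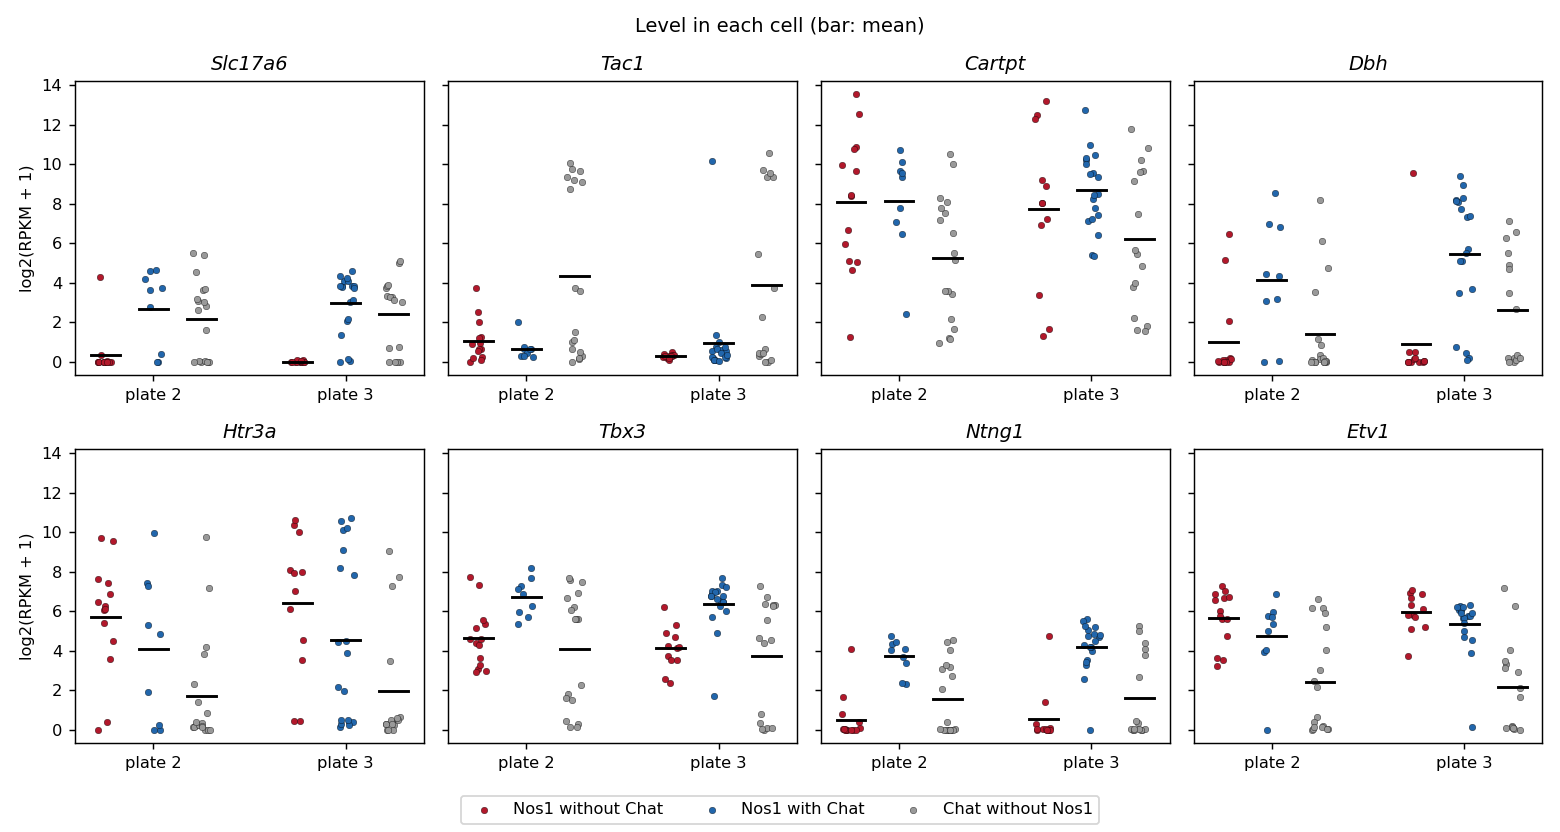
Level of 8 genes in log2(RPKM + 1) on plates 2 and 3, 1 point per cell and a bar at the mean, for neurons with Nos1 and no Chat, with Nos1 and Chat, and with Chat and no Nos1. Slc17a6 is at or near 0 in all but 1 cell of the first class, Tac1 is high mainly in the last (means of 4.37 and 3.91), and Dbh, Tbx3 and Ntng1 are highest in the cells with both transcripts.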

How the data were processed

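The series table holds 1 column for each of 204 cells, and the deposited values are on a log2 scale. That they are log2(RPKM + 1) was read from the values, which turn into whole multiples of a step set by gene length and cell depth. Reads were placed on the mouse genome build mm10, per the submitters' processing notes. Aligner, counter, strand setting and filters were not given in the sources used here. Reads per cell come from this step, which was fitted to the protein-coding genes of each cell with exon lengths of GENCODE M21. As a check, 15593 of 19433 protein-coding genes (80.2%) gave whole reads within 0.01 reads in over 99% of their values. Reads per cell ran from 453108 to 14310837, with plate medians between 3445520 and 4690950.

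The measure was the difference in mean log2(RPKM + 1), without minus with Chat, computed on each plate with Python 3.11.15, numpy 2.4.6 and pandas 2.3.3. It understates the difference for genes with low values. A gene was compared where it reached 1 in at least 5 compared cells of each plate and was called at a difference of 2 or more in the same direction on plates 2 and 3. Chat was left out. The script was tested on simulated data. Named genes were Nos1, Gal and Vip; the 15 genes in each direction with the largest smaller difference, detected in at least 50% of the higher class, without mitochondrial, ribosomal, Gm and Rik genes; and in each list the called members or else the 2 with the largest difference of 1 sign. In lists of other cell types the member detected in most cells was taken. Genes outside this rule that are named for neurons with Chat alone, or as called genes that a list leaves out, were chosen after their values were seen. A gene that the rule named is not reported here. The classes and the 41 gene lists were chosen with earlier results of these data known. Intervals and limits from a count of 0 (3 cells) cover counting error only. Upstream windows were read from RefSeq (GRCm38.p6). The alternatives concerned the limits for Nos1, Chat and neurons, the pseudocount, the summary over cells, scaling to TPM, the filter, the size, cells that carried another cell type's list, misassigned reads, depth and single cells left out.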

Additional observations from a re-analysis of the deposited data

Results flagged for a closer look

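Of 31 leading and marker genes examined in the 9 neurons with Chat on plate 2, 10 had 1 cell far from the others. Chance alone sets apart about 1 in 20 such groups, and many of these genes were at 0 in most of the 9 cells, where any value stands apart. For genes higher in neurons without Chat the cell was the highest: Rprml reached 3.92 in cell 35, C1ql1 4.65 and P2ry6 0.45 in cell 40, Bves 1.77 in cell 26, Tspan18 2.14 in cell 25, Plvap 0.86 in cell 24, F2rl2 0.28 in cell 49 and Kcnj5 0.0321 in cell 8. For genes lower in neurons without Chat the cell was the lowest. Penk was at 2.95 in cell 24, where the nearest other cell had 9.71, and Nrsn2 at 0 in the shallow cell 6, where the nearest other had 5.72.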

How the results depend on the processing

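As shares of the genes compared, 0.404% were higher and 0.956% lower. These shares became 1.11% and 3.03% with a pseudocount of 0.1, 0.0425% and 0.142% with a pseudocount of 10, 0.701% and 2.13% with medians, 1.83% and 4.38% at a size of 1, 0.0779% and 0.340% at a size of 3, and, since many more genes entered, 0.115% and 0.273% with no filter, where the called genes still numbered 57 in the upward direction. With Nos1 between 1 and 5 they were 0.0758% and 1.59%. Only the share of higher genes moved by over 1.5 times with Nos1 at 2 or more (0.634%), Nos1 at 4 or more (1.73%), a log2 ratio of mean RPKM (0.638%), without cells that carry another cell type's list (0.615%), without the shallowest cells by genes detected (0.752%) and in cells with Y-linked transcripts (0.791%). The lower share held there, but many of its genes changed. Of the lower genes, 73 were called again with Nos1 at 2 or more, 66 as a ratio of mean RPKM and 76 without cells that carry another list. Of the 57 higher genes it was 54, 45 and 46. Fewer genes were compared in the first and last of these settings. In cells with Y-linked transcripts all 57 were called again. The setting with Y-linked transcripts and the limit of 1000000 reads were chosen after seeing the data. Scaling to TPM moved the lower share to 1.58% and the median of all genes to -0.31 on plate 2 and -0.21 on plate 3. Leaving out 1 cell at a time gave 0.372% to 0.475% higher and 0.868% to 1.03% lower. It brought 7 of 59 named genes under the limit (Prima1, Casz1, Htr4, Ddc, Kcnh2, Tbx3 and Nell2, at -1.81 to -1.94), brought Vip to 2.08, and turned the sign of 0. On the plate where its difference was smaller or turned, the sign was reversed with Nos1 at 4 or more for Vip (-0.19), Nrsn2 (0.95), Prima1 (1.70), Slc17a6 (0.39), Npy1r (0.0323), Htr4 (0.14), Adra2a (0.78), Ddc (0.00272), Lrrtm1 (0.37) and Nefl (2.12), with 1 neuron with Chat on plate 2. With Nos1 between 1 and 5 it was reversed for Mt3 (0.38), Lgals3 (0.0529), Nxph3 (-0.34), Nell2 (0.0292), Syp (-0.19) and Hspb1 (0.37), and as a ratio of mean RPKM for Mt3 (0.24). The cause was not tested. No paired analysis was possible because the result comes from no test and cell numbers only name wells. Differences in depth between cells and reads assigned to wrong wells limit levels near 1, and with values under 0.02% of a gene's plate sum set to 0 the shares were 0.418% and 0.978%.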
